A study of Homo sapiens with 6 samples.

Results

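The 37 genes described here encode enzymes and transferases of fatty acid oxidation, from the activation of a fatty acid to the transfer of its electrons towards the respiratory chain. They were chosen by name, and all 37 of 37 were found among the 22933 gene symbols of the authors' deposited table. RNA-Seq had been performed on PC-3, a human prostate cancer line derived from a bone metastasis, in 3 samples of each of 2 groups. All cells carried rtTA2, the transactivator that switches on a Tet promoter when doxycycline (Dox) is present, together with a retrovirus that expresses tdTomato from the PGK promoter. The tdTom group carried no further gene, the other group also carried TTP, the mRNA-destabilising protein encoded by ZFP36, under the Dox-dependent promoter, and all cells received 300 ng/ml Dox for 4 hours. Transduced cells were sorted by their tdTomato signal, and no source used here says that they were single clones. The table gives 1 FPKM value (a fragment count per transcript length and per library size) per group and locus, so that values of single samples, their spread and their depth were not analysed here and no difference below has a replicate check.

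ZFP36 itself had an FPKM of 5.56 in tdTom and 5.54 in the group labelled TTP-tdTom. No excess of TTP mRNA was therefore seen at this locus, and the directions below follow the group names as deposited, under which 22.7% of all compared gene symbols were lower and 2.37% higher by at least 1.5-fold in the group labelled TTP-tdTom. Whether fragments of the transgene were counted there was not analysed here. The epithelial keratins KRT8, KRT18 and KRT19 and the adhesion gene EPCAM were present in tdTom at between 15.1 (EPCAM) and 98.2 FPKM (KRT18), while the prostate luminal gene KLK3 stood at 1.12. Of 8 markers of blood, vessel and stroma, only COL1A1, at 4.34, and COL3A1, at 2.46, exceeded 1 FPKM in tdTom, and COL3A1 was listed at 0 in the group labelled TTP-tdTom.

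As background, a fatty acid is first joined to coenzyme A by an acyl-CoA synthetase and then carried into mitochondria as a carnitine ester. Acyl-CoA dehydrogenases, hydratases, hydroxyacyl-CoA dehydrogenases and thiolases then remove acetyl-CoA in repeated turns, and the electron transfer flavoprotein passes on the electrons of the dehydrogenases. Peroxisomes shorten very long and branched chains with enzymes of their own. Prostate cancer cells are known to use this pathway, and AMACR, a racemase for branched chains, is a tissue marker of prostate cancer.

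TTP binds AU-rich elements, whose core is UAUUUAU, in the 3′UTR of its target mRNAs. The sites below are those of the 4 members with the lowest ratio among the members that hold this heptamer, and they are shown because they are the sequence that the induced protein is known to bind. They were read from human transcripts of GENCODE release 29, in DNA letters and 5′ to 3′, with the heptamer in capitals, and each name gives the position of the first base of the heptamer in the longest annotated 3′UTR.

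ACSL4, base 1517 of 2692: ttgctctaaaaTATTTATgaagaaaatac
ACSL4, base 2291 of 2692: cttgatatttgTATTTATtctttttttct
ACADSB, base 558 of 4546: gcctggctgggTATTTATattatcattct
ACADSB, base 3491 of 4546: ccttgaatttaTATTTATtgatcaagttc
ACSL3, base 612 of 2985: tcttctttataTATTTATtttttattaga
ACSL3, base 2533 of 2985: agtggatttgaTATTTATaatgttctcta
ACSL3, base 2916 of 2985: atggtatggacTATTTATttgtaatttga
AMACR, base 2904 of 2915: tagaatgtctaTATTTATaaaaa

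In GRCh38, the build of that annotation, the ACSL4 windows lie on the minus strand at chrX:109642495-109642523 and chrX:109641721-109641749. The ACADSB windows lie on the plus strand at chr10:123054312-123054340 and chr10:123057245-123057273. The ACSL3 windows lie on the plus strand at chr2:222942255-222942283, chr2:222944176-222944204 and chr2:222944559-222944587, and the AMACR window on the minus strand at chr5:33986178-33986200. All positions of loci given below are instead those of the deposited table, which uses GRCh37, and cannot be set against these.

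Most of the fatty acid oxidation genes differed little between the groups, and the large differences were confined to a few of the 36 members that could be compared. These had a mean FPKM of at least 1 over both groups and a value above 0 in each. ACADM, ACSL4, ACADSB, SCP2 and ACSL3, and the rows that hold PECR and AMACR together with another gene, were lower by at least 1.5-fold in the group labelled TTP-tdTom, while 0 members were higher by as much. The 7 lower members, counting those shared rows, are 19.4% of 36, beside 22.7% of all 12511 gene symbols that met the same conditions, and 2.37% of these were higher. The share of members was thus close to the background, and the count is no result particular to fatty acid oxidation. With log2 ratios centred on the median of all compared gene symbols, 5 members were lower by 1.5-fold (the rows with PECR and AMACR were not), beside 13.3% of these symbols. Centred on gene symbols of like GC content, ACADM and ACSL4 were, beside 7.42% of the 10714 gene symbols with an annotated 3′UTR. At a larger threshold of 2-fold, ACADM, ACSL4 and ACADSB were lower and 0 members were higher, beside 8.3% and 1.22% of all compared gene symbols. At a smaller one, 10 members were at or below 80% of their tdTom level, beside 40.5% of all compared gene symbols, 0 were at or above 125%, beside 5.18%, and 26 lay in between. The median log2 ratio of FPKM, labelled TTP-tdTom over tdTom, was -0.19 for the members and -0.24 for all compared gene symbols, and 22 members lay above the latter median. As RNA was taken from whole cultures, less RNA per cell and fewer expressing cells cannot be told apart.

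**Figure D1:**
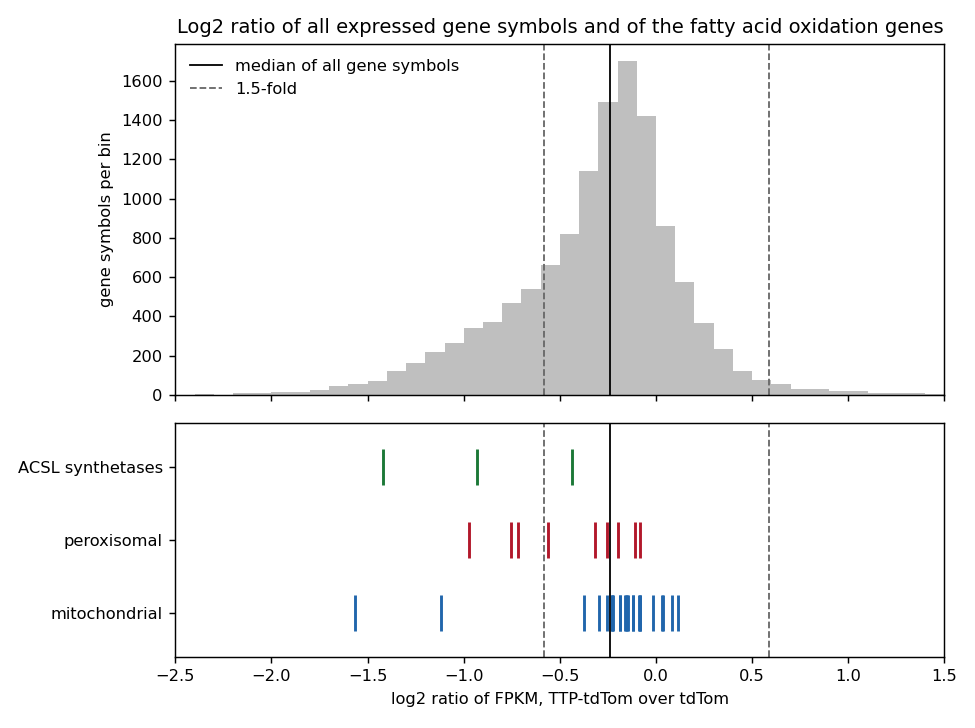
Upper panel, number of gene symbols (of 12511) in bins of the log2 ratio of FPKM, labelled TTP-tdTom over tdTom; lower panel, each of 36 members as a tick by compartment. The solid line is the median of all gene symbols, -0.24, the dashed lines mark 1.5-fold, and the axis leaves out gene symbols beyond its ends. Of 24 mitochondrial members 2 lie left of the dashed line, of 9 peroxisomal members 3, and of 3 ACSL synthetases 2. Over all gene symbols 22.7% were lower by 1.5-fold, and the difference between compartments was not tested.

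The members spanned a wide range of levels. In tdTom the compared members ran from 2.13 FPKM (DECR2) to 213.2 (DECR1) with a median of 10.9, beside a median of 9.01 for all compared gene symbols. DECR1, ECI2 and EHHADH exceeded 100 FPKM, 17 members lay between 10 and 100, and 16 lay below 10. Without values of single samples, it is not known which neighbours in this order differ beyond their spread. The row of CPT1B also names CHKB, that of AMACR also C1QTNF3 and that of PECR also MREG, so that these values cannot be given to the member alone. Over the loci of 15 members, the table has rows of other genes. In the pairs of FPKM below, tdTom stands first.

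**Figure D2:**
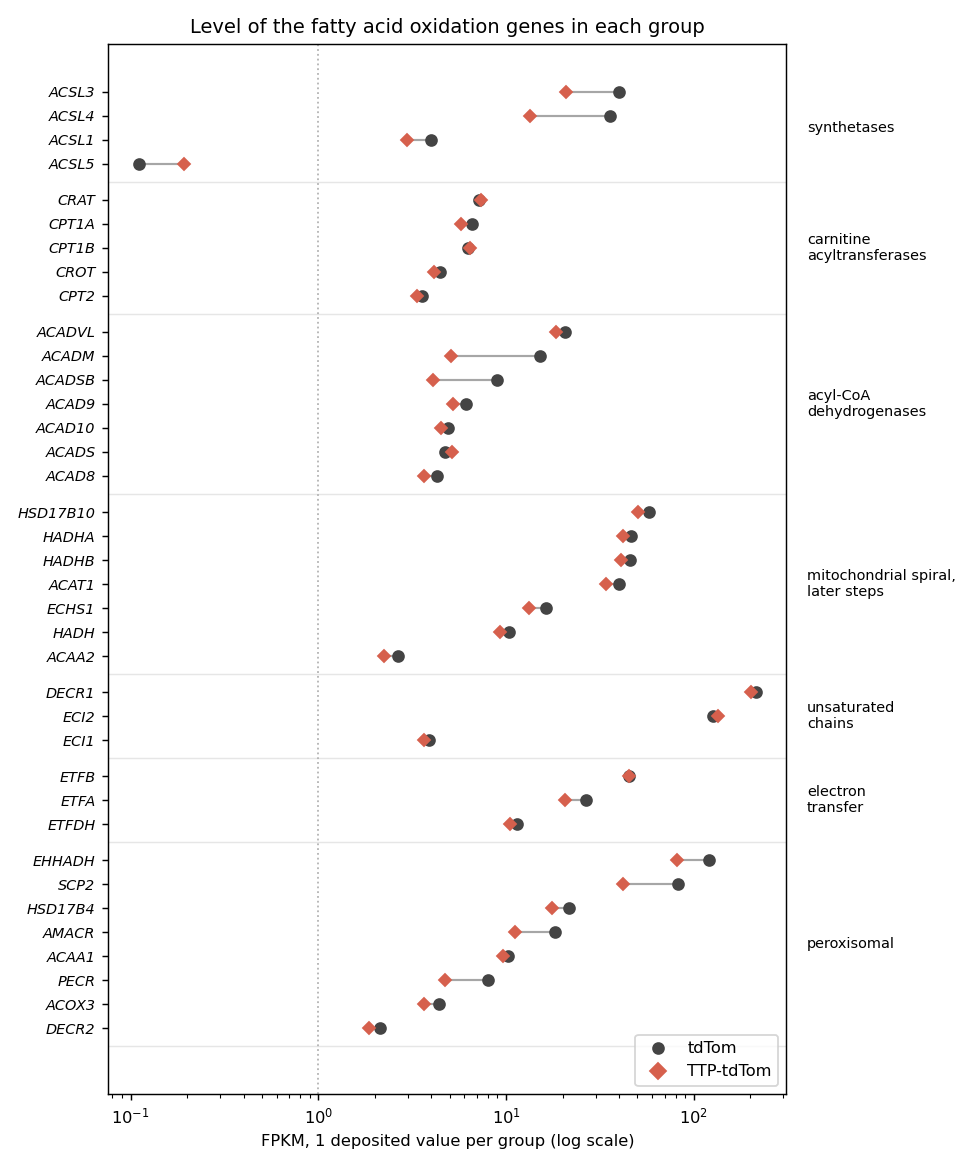
FPKM of each of the 37 members in tdTom (circles) and in the group labelled TTP-tdTom (diamonds) on a log scale, 1 deposited value per group, by role and in order of the tdTom level; the dotted line marks 1 FPKM. The long connecting lines belong to ACSL3, ACSL4, ACADM, ACADSB, SCP2, AMACR and PECR, whose diamonds lie to the left, and to ACSL5, which lies below 1 FPKM in both groups.

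Among the long-chain acyl-CoA synthetases, which activate fatty acids on the membranes of the endoplasmic reticulum, mitochondria and lipid droplets, ACSL3 and ACSL4 made up nearly all of the FPKM and both were lower. ACSL4, which prefers arachidonate and other polyunsaturated acids, had an FPKM of 35.7 and 13.4, a log2 ratio of -1.42, and lies on chromosome X from 108884446 to 108976621. Of its tdTom level 37.4% was left, and 2.15% of all compared gene symbols had a lower ratio. ACSL3, a synthetase of the endoplasmic reticulum and lipid droplets, stood at 40.0 and 20.9, with a log2 ratio of -0.93, on chromosome 2 from 223725717 to 223808834. ACSL1, the main synthetase of liver, fat and heart, was at 4.00 and 2.96, a log2 ratio of -0.43 that lies within 1.5-fold. ACSL5 was at 0.111 and 0.193 FPKM, below the minimum for comparison in both groups. Of the 3 compared synthetases, 2 were lower by at least 1.5-fold, beside 22.7% of all compared gene symbols. With only 3 genes, this count is no result particular to these enzymes. Relative to gene symbols of like GC content ACSL4 alone was as low, at -0.65, with ACSL3 at -0.17. Summed over the 4 synthetases, FPKM was 79.8 and 37.4, so that 46.9% was left. The share of ACSL4 in that sum was 44.8% in tdTom and 35.7% in the group labelled TTP-tdTom, and that of ACSL3 was 50.1% and 55.9%.

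The carnitine acyltransferases, which make and unmake the carnitine esters, differed little. Of these 5, 0 passed 1.5-fold in either direction, beside 22.7% lower and 2.37% higher of all compared gene symbols. With only 5 genes, this count is no result particular to these enzymes. CPT1A, the outer membrane enzyme that controls entry into mitochondria, had an FPKM of 6.57 and 5.77. CPT2, which reforms acyl-CoA at the inner membrane, had 3.57 and 3.36. CPT1A and CPT2 thus kept 87.9% and 93.9% of their tdTom levels. CRAT, which acts on acetyl and short acyl groups, stood at 7.16 and 7.35. CROT, which makes carnitine esters of the medium chains that leave peroxisomes, was at 4.44 and 4.11. The row that holds CPT1B, the muscle isoform, with CHKB was at 6.30 and 6.44. The 5 log2 ratios ran from -0.19 (CPT1A) to 0.04 (CRAT), each above the median of all compared gene symbols. With all rows of CPT1B summed, its log2 ratio was -0.33, below that median.

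The acyl-CoA dehydrogenases, which take the first step of each turn, split into a pair with large differences and a group of 5 with small ones. Of these 7, 2 were thus lower by at least 1.5-fold, beside 22.7% of all compared gene symbols. ACADM, the medium-chain enzyme, had the lowest ratio of all members. Its FPKM was 15.1 and 5.12, a log2 ratio of -1.57, with 33.8% of the tdTom level left. It lies on chromosome 1 from 76190043 to 76230105, and 1.30% of all compared gene symbols had a lower ratio. ACADSB, which acts on short branched chains and belongs to isoleucine breakdown, stood at 8.91 and 4.10, a log2 ratio of -1.12, on chromosome 10 from 124768429 to 124817806. With a further low row of ACADSB added in, its log2 ratio was -0.67, which is past 1.5-fold but not 2-fold. The enzymes for very long and for short chains did not share these differences in size. ACADVL, for very long chains, stood at 20.6 and 18.6, a log2 ratio of -0.15. ACADS, for short chains, stood at 4.74 and 5.13, a log2 ratio of 0.11 that was the highest of the compared members. Of the summed FPKM of ACADVL, ACADM and ACADS, ACADM therefore made up 37.4% in tdTom and 17.8% in the group labelled TTP-tdTom, and ACADVL 50.8% and 64.4%. ACAD8, which acts in valine breakdown, was at 4.30 and 3.67, and ACAD9, also an assembly factor of respiratory complex I, at 6.12 and 5.25. ACAD10 was at 4.90 and 4.52.

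The enzymes of the later mitochondrial steps moved within a narrow range, with 7 of 7 log2 ratios between -0.30 (ECHS1) and -0.15 (HADHA). Of the 7, 0 were past 1.5-fold, and 2, ECHS1 and ACAA2, lay below the median of all compared gene symbols. Over all compared gene symbols 79.9% had a log2 ratio below 0 and 22.7% were lower by 1.5-fold. HADHA and HADHB are the subunits of the trifunctional protein, which handles long chains. Their rows give the same locus, chromosome 2 from 26413504 to 26513333, so that the position of each gene alone is not known from it. HADHA had an FPKM of 46.5 and 42.1. HADHB had 45.9 and 41.1, so that the level of HADHA over that of HADHB was 1.01 in tdTom and 1.02 in the group labelled TTP-tdTom. ECHS1, the short-chain hydratase, had 16.2 and 13.2, and HADH, the dehydrogenase for medium and short chains, had 10.4 and 9.28. HSD17B10, which oxidises branched hydroxyacyl-CoA and is also a subunit of mitochondrial RNase P, had the highest level of these 7, at 57.4 and 50.4. The thiolases differed in level. ACAT1, which also acts in ketone body and isoleucine metabolism, was at 39.8 and 33.9, and ACAA2 at 2.67 and 2.24.

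DECR1 and ECI2 were the most abundant members and were nearly level between the groups. DECR1, the mitochondrial dienoyl-CoA reductase needed for polyunsaturated chains, had an FPKM of 213.2 and 201.4, a log2 ratio of -0.08. ECI2, an enoyl-CoA isomerase of peroxisomes and mitochondria, had 127.2 and 134.6, a log2 ratio of 0.08. ECI1, the mitochondrial isomerase, was at 3.86 and 3.64. Among the electron transfer genes, ETFB stood at 45.4 and 44.9 and ETFDH, the oxidoreductase that hands electrons to ubiquinone, at 11.4 and 10.5. ETFA, the partner subunit of ETFB, was at 26.6 and 20.5, a log2 ratio of -0.38. The level of ETFA over that of ETFB was thus 0.586 in tdTom and 0.456 in the group labelled TTP-tdTom. Whether this difference exceeds the spread between samples was not tested.

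The rows of all 8 peroxisomal enzymes were lower in the group labelled TTP-tdTom, 3 of them by at least 1.5-fold (SCP2 and the shared rows of AMACR and PECR), but relative to the median of all compared gene symbols 6 were lower, SCP2 alone by 1.5-fold, and ACAA1 and DECR2 were higher. Relative to gene symbols of like GC content, 0 of the 8 were lower by 1.5-fold, with SCP2 at -0.40. The GC content of SCP2 was read from a transcript that is mostly 3′UTR, 3699 of 3926 bases. Over all compared gene symbols 79.9% had a log2 ratio below 0 and 22.7% were lower by 1.5-fold. SCP2, whose gene encodes both a sterol carrier protein and the thiolase for branched chains, had an FPKM of 82.7 and 42.1, a log2 ratio of -0.97, on chromosome 1 from 53392901 to 53517289. The row that names AMACR with C1QTNF3, on chromosome 5 from 33987028 to 34124633, was at 18.3 and 11.1, a log2 ratio of -0.72. The row that names PECR, an enoyl-CoA reductase, with MREG, on chromosome 2 from 216807218 to 216967506, was at 8.01 and 4.76, a log2 ratio of -0.75. How much of these differences belongs to AMACR and PECR was not tested. EHHADH, the bifunctional enzyme for straight chains and dicarboxylic acids, was at 120.3 and 81.6, a log2 ratio of -0.56 that falls just short of 1.5-fold. HSD17B4, the bifunctional enzyme for branched and very long chains, was at 21.8 and 17.5. The thiolase ACAA1 was at 10.2 and 9.67, the branched-chain oxidase ACOX3 at 4.37 and 3.66 and the reductase DECR2 at 2.13 and 1.86. Together with CROT, the 9 peroxisomal members had a median log2 ratio of -0.32, beside -0.15 for the 24 mitochondrial members. Centred on all gene symbols these medians were -0.0780 and 0.0853, and centred on gene symbols of like GC content -0.11 and 0.0317. With rows of a single symbol, which leaves out AMACR, PECR and CPT1B, they were -0.25 and -0.16, beside -0.24 for all gene symbols. At a mean FPKM of at least 10 the medians were -0.64 and -0.15, beside -0.27 for all gene symbols. The peroxisomal value there rests only on EHHADH, HSD17B4, SCP2 and the shared row of AMACR. The groups of genes overlap widely, and with 1 value per group the difference between compartments was not tested.

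Low ratios were found among AT-rich transcripts. The transcripts of ACADM, ACSL4, ACADSB, SCP2 and ACSL3, the 5 lower members whose rows name no other gene, were 37.4% to 41.0% G and C. GC content was that of the transcript with the longest 3′UTR, and that of other transcripts was not analysed here. For SCP2 this transcript has 3926 bases, of which 3699 are 3′UTR, and for ACAT1 it has 1345, of which 816 are. Deciles of GC content were taken over the 10714 compared gene symbols with an annotated 3′UTR. In the decile with the lowest GC content, up to 38.3%, the median log2 ratio was -0.77, and in the decile with the highest, from 61.4%, it was -0.09. Across the 36 members the log2 ratio had a Spearman's rho of 0.59 with GC content and of -0.65 with the length of the 3′UTR, beside 0.49 and -0.24 across 10714 gene symbols with an annotated 3′UTR. These are descriptions across genes, which share the same libraries and are not replicates, and GC content and length are themselves related. Long 3′UTRs were not shared by all the lower members, since those of ACADM and PECR have 916 and 866 bases, and those of SCP2 and AMACR are shorter in the transcript with the longest coding sequence. Set against the median of their own GC decile, the log2 ratio of ACADM still differed by -1.14 (-1.57 against -0.43) and that of ACSL4 by -0.65 (-1.42 against -0.77). ACSL3, in contrast, differed by -0.17, and 19 of the 36 members lay above theirs. CROT and ACAT1 had transcripts as poor in GC, 40.2% and 40.1%, with log2 ratios of -0.11 and -0.23. The part of base composition in these differences was not tested.

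**Figure D3:**
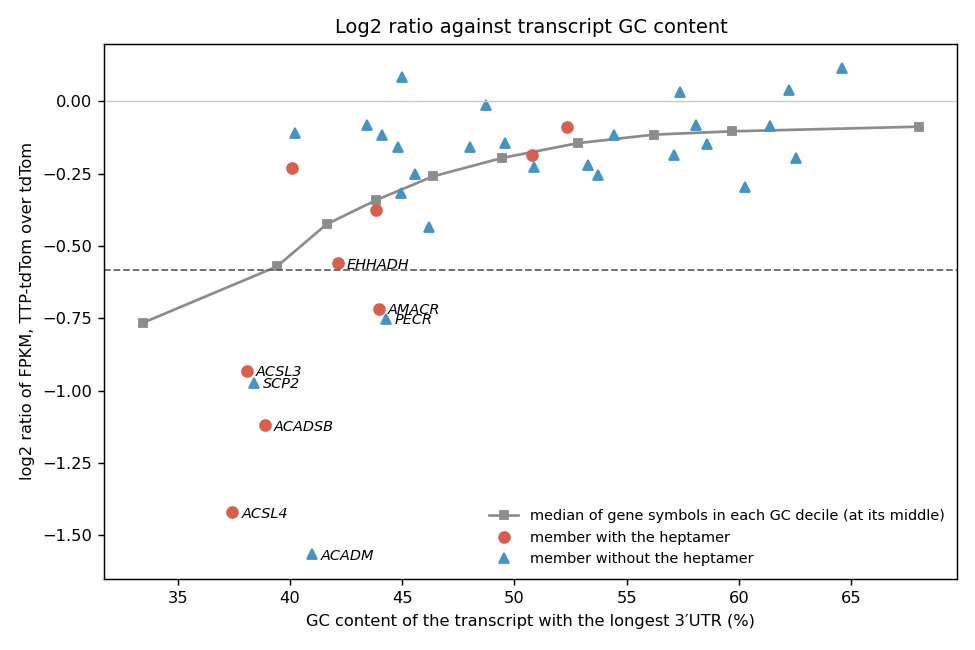
Log2 ratio of FPKM, labelled TTP-tdTom over tdTom, of 36 members against the GC content of the transcript with the longest 3′UTR; circles hold the heptamer UAUUUAU in the 3′UTR, triangles do not. Squares are the medians, by decile of GC content, of the 10714 gene symbols with an annotated 3′UTR, from -0.77 to -0.09, and the dashed line marks 1.5-fold lower. ACADM and ACSL4 lie farthest below the squares.

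The heptamer shown above was searched on the transcript strand, overlapping copies included, in the longest 3′UTR of each gene. It was present in 9 of the 36 compared members, 25%, beside 36.5% of 10714 gene symbols. ACSL3 held 3 copies, ACSL4, ACADSB, ETFA and ACAT1 held 2 each, and AMACR, EHHADH, CPT1A and CPT2 held 1 each. The 2 copies of ETFA overlap, starting at bases 322 and 326 of its 3′UTR. Members with the heptamer had a median log2 ratio of -0.56 and those without it one of -0.16, while the medians over all gene symbols with a 3′UTR were -0.44 and -0.18. Centred on gene symbols of like GC content, the members' medians were -0.14 and 0.0215, and ACSL4 alone of the members with the heptamer was lower by 1.5-fold. Of the 9 members with the heptamer, 4 were lower by at least 1.5-fold, ACSL4, ACADSB, ACSL3 and the row with AMACR. Of the 27 members without it, 3 were as low, ACADM, SCP2 and the row with PECR. These shares, 44.4% and 11.1%, were near those over all gene symbols with a 3′UTR, 39.3% and 13.8%. ACADM, with the lowest ratio, thus held 0 copies in a 3′UTR of 916 bases, whereas ACAT1 held 2 copies at a log2 ratio of -0.23. CPT2 held 1 copy and had a log2 ratio of -0.09. Members with the heptamer also had longer 3′UTRs, with a median of 2692 bases against 598, and a lower median GC content, 42.1% against 49.6%, so that the heptamer, length and composition cannot be told apart in these genes. In the transcript with the longest coding sequence, the sites of AMACR and ACAT1 are not part of the 3′UTR, while those of ACSL3, ACSL4 and ACADSB are. A match is only a run of letters, and binding was not measured here.

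Other genes of fatty acid metabolism, 58 in all by role, gave a similar picture. Of the 47 that could be compared, 8 were lower by at least 1.5-fold, or 17.0%, and 1 was higher, beside 22.7% and 2.37% of all compared gene symbols, with a median log2 ratio of -0.26. Centred on all gene symbols, 5 were lower (MUT and FABP4, given below, were not) and 2 higher, beside 13.3% and 4.61%. Centred on gene symbols of like GC content, 3 were lower and 1 higher, beside 7.42% and 4.92% of 10714 gene symbols. The lower genes included both carriers and late enzymes. SLC25A17, a carrier of the peroxisomal membrane, had an FPKM of 15.3 and 7.10, a log2 ratio of -1.11. ABCD3, which imports fatty acids into peroxisomes, had 27.4 and 15.3, a log2 ratio of -0.85. HSDL2, a dehydrogenase-like protein of peroxisomes and mitochondria, had 18.6 and 9.62.

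PPARG, a nuclear receptor for fatty acids, was at 35.4 and 18.9, a log2 ratio of -0.91. MCEE and MUT, which convert the propionyl-CoA left from odd chains on its way to succinyl-CoA, were at 4.66 and 2.63 (MCEE) and at 4.60 and 2.63 (MUT). The fatty acid binding protein FABP4 was at 5.52 and 3.55. LIPE, the hormone-sensitive lipase, was the 1 gene that was higher by 1.5-fold, at 1.63 and 2.95, a log2 ratio of 0.85. The direction of LIPE rests on the row used, since with all its rows summed the log2 ratio was -0.64, and with a pseudocount of 1 it was 0.58, just short of 1.5-fold. The carnitine carrier SLC25A20, at 2.25 in both groups, and the carnitine importer SLC22A5, at 4.94 and 4.79, were nearly level. PPARA, the receptor best known for inducing this pathway, was at 1.23 and 1.06.

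**Figure D4:**
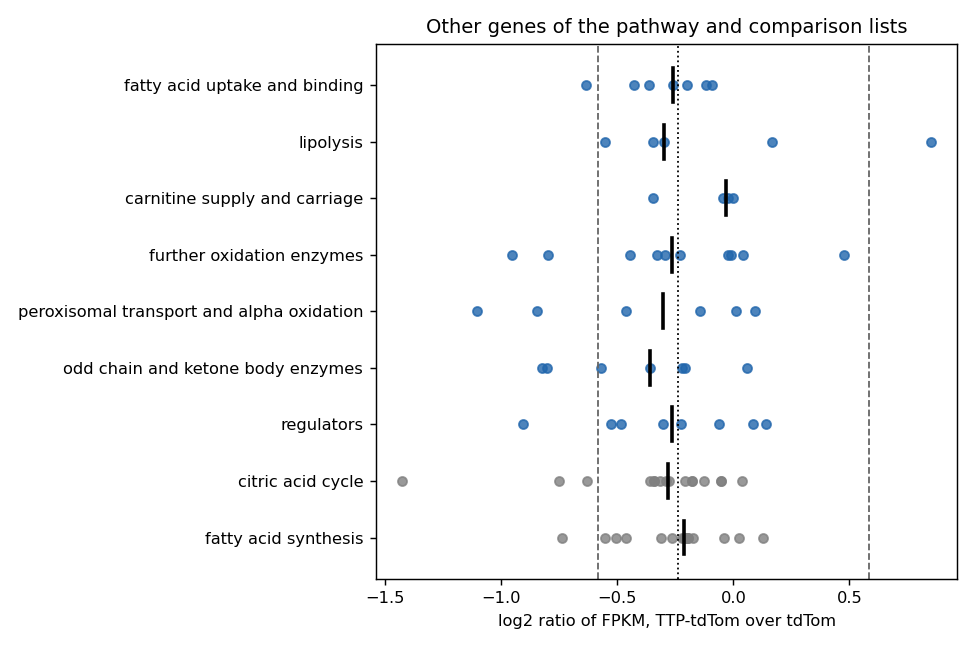
Log2 ratio of FPKM, labelled TTP-tdTom over tdTom, of each compared gene of the pathway lists (blue) and of the comparison lists (grey); black bars are medians of each list, the dotted line is the median of all gene symbols, -0.24, and the dashed lines mark 1.5-fold. LIPE is the point beyond the right dashed line, and SUCLA2, at -1.43 in the citric acid cycle, is the lowest point.

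Neighbouring pathways were read against the same background, 22.7% of all compared gene symbols lower by 1.5-fold and a median of -0.24. Of 16 citric acid cycle genes, 3 were lower by at least 1.5-fold, or 18.8%, with a median log2 ratio of -0.28. Of 16 compared genes of fatty acid synthesis 1 was, ACLY, or 6.25%, with a median of -0.21. Centred on all gene symbols, 1 and 0 were, beside 13.3% of all. With 1 value per group no test sets fatty acid oxidation apart from either pathway.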

How the data were processed

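Strand-specific libraries of 6 samples were sequenced by the authors in paired-end runs, and reads were aligned with TopHat2 2.0.13 to Hs37D5 (GRCh37) and assembled and compared with Cufflinks 2.2.1, per the methods and the processing notes of the labels. The authors' deposited table holds FPKM values, 1 per group, at 406165 loci. Its columns of fold change, test statistic, p and q are the authors' own comparison and were not used here. Counts and depth are not in FPKM values, so no interval is given.

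A symbol was represented by the row with the most RefSeq names, then the highest summed FPKM. Ratios used a pseudocount of 0, and a gene was compared with a mean FPKM of at least 1 and a value above 0 in both groups. A gene was counted as lower or higher past 1.5-fold, and no test was run. Members and lists were chosen with earlier results of these data known. The named genes were all members, pathway genes past 1.5-fold (1 of which is not reported here), ZFP36 and marker ranges, with SLC25A20, SLC22A5, PPARA, ACLY, SUCLA2 and the low genes of the closing section added after their values were seen. Heptamer sites were those of the 4 members with the lowest ratio that hold one. Starts of loci are counted from 1. A 3′UTR from GENCODE release 29, matched by symbol or older symbol, was found for 10714 of 12511 gene symbols, 85.6%, and for 37 of 37 members. The scripts were tested on simulated data. Python 3.11.15, numpy 2.4.6, pandas 2.3.3 and matplotlib 3.10.9 were used.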

Additional observations from a re-analysis of the deposited data

Results flagged for a closer look

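The table holds 10 further rows for 7 of the members, assembled inside their loci under the same symbol but not used in the comparison, each with a single RefSeq name. In 6 of these rows the FPKM was higher in the group labelled TTP-tdTom than in the control group, which is why they are listed, and in 4 it was lower. The second row of ACADSB was at 1.51 FPKM in the group labelled TTP-tdTom and listed at 0 in tdTom, the opposite direction to its main row. The further rows of ACAD9 were at 1.12 against 0.288 in tdTom and at 0.489 against a listing of 0. Those of ACAD10 (0.510 against 0.244), CROT (0.509 against 0.245) and ACOX3 (0.387 against 0.0944) were below 1 FPKM in both groups. The 4 rows in the other direction were those of CPT1B, at 1.11 FPKM in tdTom against a listing of 0, at 0.714 against 0.293 and at 0.336 against a listing of 0, and that of ACSL5, at 0.682 against a listing of 0, where the ACSL5 row used was at 0.111 and 0.193. With all rows of a symbol summed, the log2 ratio of ACAD9 was 0.10 in place of -0.22 and that of CPT1B -0.33 in place of 0.03. No test was made of these differences, and the strand of these rows is not given in the table.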

How the results depend on the processing

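No paired analysis was possible because each group has a single deposited value per locus, and no replicate could be left out. No value or count has an error, and a median is said to move where it shifts by over 0.1 on the log2 scale. The 7 lower members were the same 7 with a pseudocount of 0.1 or 1, with no filter, with the row of highest FPKM, with all rows of a symbol summed and after rescaling to the same FPKM sum over rows with a symbol. Over all gene symbols the share lower at these settings ran from 18.8% (pseudocount of 1) to 22.8% (row of highest FPKM). The members' share was 19.4%, or 18.9% with no filter, and exceeded that of all gene symbols only with a pseudocount of 1. At a 2-fold threshold 3 members were left (ACADM, ACSL4 and ACADSB), or 8.33%, beside 8.3% of all gene symbols. With log2 ratios centred on GC deciles, chosen after seeing the data, 2 were left (ACADM and ACSL4). These are 5.56%, beside 7.42% of the 10714 gene symbols with an annotated 3′UTR. With rows of a single symbol, also chosen after seeing the data, 5 of 33 were lower, beside 23.4% of all gene symbols, and centred on all gene symbols 5 of 36, beside 13.3%. With no filter on low values 1 member was higher, ACSL5, beside 13.1% of all gene symbols.

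Centring on all gene symbols, a shift of 0.24, moved the medians to 0.0468 for the members, 0.0853 for mitochondrial, -0.0780 for peroxisomal, -0.0443 for citric acid cycle and 0.0282 for fatty acid synthesis genes, and to -0.32 with and 0.0808 without the heptamer. It left 5 pathway genes lower and 2 higher, 1 citric acid cycle gene and 0 fatty acid synthesis genes lower, and over all gene symbols 1660 lower and 577 higher in place of 2838 and 297. Centring on GC deciles gave medians of 0.0081 for the members, 0.0317 for mitochondrial, -0.11 for peroxisomal, -0.0435 for citric acid cycle and -0.0313 for fatty acid synthesis genes, -0.14 with and 0.0215 without the heptamer. It left 3 pathway genes, 1 citric acid cycle gene and 1 fatty acid synthesis gene lower, beside 7.42% of 10714 gene symbols. The sign of the members' median thus depends on the scaling. At a mean FPKM of at least 10, which removes low genes, 5 of 18 members were lower, or 27.8% beside 24.2% of all gene symbols. The peroxisomal median was then -0.64, beside -0.27 for all gene symbols, and rests on few genes. At this setting 4 pathway genes were lower and 0 higher, beside 24.2% and 0.64% of all gene symbols.

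Of the other pathway genes 0 were higher with a pseudocount of 1, with rows summed, where LIPE turned from 0.85 to -0.64, or at 2-fold, where 1 was lower with 1 citric acid cycle and 0 fatty acid synthesis genes. Over all gene symbols 2.22%, 5.69% and 1.22% were higher at these settings, and 8.3% were lower at 2-fold. Of the 47 compared pathway genes, 20 were at or below 80% of their tdTom level and 2 at or above 125%. Over all gene symbols these shares were 40.5% and 5.18%. Of 16 compared genes each, 6 of the citric acid cycle and 4 of fatty acid synthesis were at or below 80%. With no filter 3 pathway genes were higher by 1.5-fold, beside the same 13.1%. Read from the transcript with the longest coding sequence, chosen after seeing the data, the heptamer was in 7 members in place of 9, AMACR and ACAT1 being lost.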

Other observations

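Several genes of the pathway were too low to be compared. PEX7, the import receptor that brings a peroxisomal thiolase and PHYH into peroxisomes, was at 1.253 FPKM in tdTom and 0.385 in the group labelled TTP-tdTom, just under the minimum mean. ACADL, the long-chain dehydrogenase, was at 0.262 and 0.186, and the coactivator PPARGC1A at 0.0783 and 0.233. These levels are values only, with no comparison drawn.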
